A study of Mus musculus with 3 samples.

Results

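The 8 genes described here are the cytokine genes Tnf, Il6 and Il10 and the feedback genes Nfkbia, Nfkbiz, Tnfaip3, Zfp36 and Socs3. They were chosen by name, with earlier results of these data known, and are 8 of the 30406 genes that the 3 libraries of the study share. Macrophages were sorted as CD45+F4/80+CD11b+ cells from hearts digested with collagenase II, and their RNA was counted cell by cell in droplets. The mice were wild type, 32 to 34 weeks old, and differed in the labels only by their diet, either control (CD), high in fat (HFD) or Western (WD). Each diet had 1 library. The number of mice behind a library and what the diets contained were not given in the sources used here. No test between diets was possible, so the diet, the mouse and the library preparation cannot be told apart, and every interval below is an exact 95% interval that covers counting error only.

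NF-kB is a family of transcription factors held in the cytoplasm by inhibitors of the IkB class until a signal such as a microbial product or TNF frees it to enter the nucleus. Among the genes it then activates are cytokines and its own inhibitors, so that the response is limited by the proteins it induces. In macrophages the same stimuli also act through messenger RNA decay and through STAT3, and several of these genes belong to the immediate early or early response that cells show within minutes of stress, including the stress of tissue dissociation.

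In the GENCODE vM21 annotation (GRCm38), Tnf lies at chr17:35199381-35202007, Nfkbia at chr12:55489410-55492647, Nfkbiz at chr16:55811375-55838899, Tnfaip3 at chr10:19000910-19015657, Zfp36 at chr7:28376784-28380253 and Socs3 at chr11:117966079-117970047, all on the minus strand. Il6 lies at chr5:30013114-30019981 and Il10 at chr1:131019845-131024974, on the plus strand. Sequences that bear on this regulation were read for the 8 genes, to show which of them carry a match to a motif of NF-kB or of messenger RNA decay. The kappa B motif, the DNA sequence that NF-kB binds, was searched on both strands in windows of 250 bases before to 50 after the gene start (RefSeq, GRCm38.p6). It was found in 3 of the 6 genes with a window (Il6, Nfkbia and Tnfaip3), against 2779 of 32851 windows of all genes (8.46%). The count for the 6 is of genes and that for all genes is of windows. Tnfaip3 also had another window, at a different gene start, without a match. Tnf, Zfp36 and Socs3 had no match, which says only that these letters are not in that window, and Il10 and Nfkbiz had no window. The matches lie at chr5:30013045-30013104 on the plus strand (Il6), and on the minus strand at chr12:55492648-55492707 (Nfkbia), chr10:19015501-19015560 and chr10:19015411-19015470 (Tnfaip3). Each stretch of 60 bases is given from 5′ to 3′ on the strand of the gene, with the match in capitals:
Il6 promoter: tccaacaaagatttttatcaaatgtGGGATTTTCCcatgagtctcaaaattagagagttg
Nfkbia promoter: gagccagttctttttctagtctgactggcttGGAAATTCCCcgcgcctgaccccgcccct
Tnfaip3 promoter, distal match: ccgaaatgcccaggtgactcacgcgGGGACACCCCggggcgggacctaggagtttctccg
Tnfaip3 promoter, proximal match: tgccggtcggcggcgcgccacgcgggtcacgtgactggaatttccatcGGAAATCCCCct

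The Il6 match began 44 bases before the RefSeq gene start, the Nfkbia match 29 bases before it, and the Tnfaip3 matches 125 and 12 bases before it. For Tnfaip3, Zfp36 and Socs3 the RefSeq start used lies inside the GENCODE gene span given above. Both Tnfaip3 matches therefore fall within that span, and the Zfp36 and Socs3 windows did not reach the GENCODE start. The second set of sequences is the AU-rich nonamer TTATTTATT, to which the protein of Zfp36 is known to bind, searched on the transcript strand of the 3′ untranslated regions of the same annotation. Counts are given for 7 of the 8 genes. Tnf held 5 of them, Nfkbia and Zfp36 held 1 each, and Il6, Il10, Nfkbiz and Socs3 held 0. Among all protein-coding genes, 1602 of 20839 (7.69%) held one, as did 6.53% of the genes whose region is as long as those of the 8. A window of 30 bases around a site is given for Tnf, Nfkbia and Zfp36, all on the minus strand, at chr17:35199680-35199709 (Tnf, where 4 overlapping nonamers run together), chr12:55489608-55489637 (Nfkbia) and chr7:28376951-28376980 (Zfp36), with the nonamers in capitals:
Tnf: taTTATTTATTATTTATTTATTATTTATTt
Nfkbia: aggaccacgttTTATTTATTgtgcttttga
Zfp36: ttatgacgactTTATTTATTgtattaagat

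The CD, HFD and WD libraries held 17464149, 16630481 and 79269380 unique molecular identifiers (UMIs, each a counted RNA molecule). Barcodes with 1000 or more UMIs, 200 or more genes and no more than 10% mitochondrial UMIs were taken as cells, which kept 2679 CD, 2717 HFD and 4775 WD cells with median UMIs of 4223, 2751 and 11668. The WD library stood apart. It came from another version of the alignment software, and the mitochondrial limit removed 26.1% of its barcodes against 6.33% in CD and 11.9% in HFD. The CD and HFD files each list 737280 barcodes, and 92 of the 6885 WD barcodes (1.34%) are among those of CD. Most WD barcodes thus lie outside the set of the CD file, which goes against the labels, where all 3 libraries have the same droplet chemistry. Which chemistry WD was made with was not tested, and this bears on every WD value. Kept cells shared 15 barcodes between CD and HFD, 1 between CD and WD and 0 between HFD and WD. In genes grouped by intron length, the median log2 WD/CD ratio was -0.66 in the group with the shortest introns and 1.98 in that with the longest, against -0.07 and 0.01 for HFD/CD. All WD values are therefore given beside HFD and CD values that do not rest on that library.

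Macrophages were taken as cells with at least 0.3% of their UMIs in the complement genes C1qa, C1qb and C1qc, called C1q-high, which were 2293 CD (85.6%), 2002 HFD (73.7%) and 3717 WD cells (77.8%). The macrophage marker Csf1r, the receptor for macrophage growth factor, was at 884, 932 and 730 CPM (UMIs per 1000000 UMIs of the class) in the C1q-high cells of CD, HFD and WD, and Mrc1, a mannose receptor of tissue macrophages, at 524, 554 and 1984. Mrc1 was thus highest in WD, whereas Csf1r and the sum of the macrophage markers, given below, were lowest there. The C1q-high cells were split by UMIs of Ccr2, a chemokine receptor of monocyte-derived macrophages, and Lyve1, a marker of resident ones, into Ccr2 only (440, 346 and 293 cells), Lyve1 only (932, 697 and 2211), both and neither. This split used all UMIs of a cell, so it depends on depth and is not matched between libraries. Median UMIs were 8465, 4528 and 28267 in cells with both, and 3247, 2386 and 8981 in cells with neither (CD, HFD and WD). Cells below the C1q limit, called C1q-low, were 386 CD, 715 HFD and 1058 WD cells. Near the limit, with 0.2 to 0.4% of UMIs in the C1q genes, lay 27 CD, 25 HFD and 444 WD cells.

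Across the C1q-high cells the 8 genes followed 1 order of the libraries, with HFD lowest and WD highest for every gene. The cytokine genes were counted least firmly. Tnf, which encodes the inflammatory cytokine TNF, had 448 UMIs in CD, 39 in HFD and 6083 in WD, or 39.3 CPM (35.8 to 43.2), 5.91 CPM (4.20 to 8.08) and 102 CPM (99.1 to 104). The 3 intervals did not overlap, and Tnf was 6.65-fold lower in HFD than in CD and 2.58-fold higher in WD than in CD. After every cell was thinned at random to 1000 UMIs, 2.79% of CD, 0.549% of HFD and 7.99% of WD cells had a Tnf UMI (13.3%, 1.65% and 49.6% before thinning).

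Il6 encodes interleukin 6, a cytokine that signals through STAT3. It had 34 UMIs in CD (2.99 CPM, 2.07 to 4.17), 1 in HFD (0.152 CPM, 0.00384 to 0.844) and 1781 in WD (29.8 CPM, 28.4 to 31.2). Il6 was thus near the limit of detection in HFD, where 3 UMIs would be 0.455 CPM, and the HFD/CD ratio of 0.0508 has an interval of 0.00125 to 0.303. The WD/CD ratio was 9.97 (7.11 to 14.4). In WD the Il6 UMIs lay in few cells: 16.1% of cells had one before thinning, the 5% of cells with the most Il6 held 68.3% of its UMIs, and 1 cell held 34, while the 5% deepest cells held 17.9% of all UMIs.

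Il10, the gene of the anti-inflammatory cytokine interleukin 10, had 31 UMIs in CD (2.72 CPM, 1.85 to 3.86), 8 in HFD (1.21 CPM, 0.523 to 2.39) and 864 in WD (14.4 CPM, 13.5 to 15.4). The CD and HFD intervals overlapped, and the HFD/CD ratio of 0.445 had an interval of 0.177 to 0.991. With each cell weighted equally the ratio was 0.727, which is not past 1.5-fold. The WD level stood above both, at 5.30 times CD (3.71 to 7.86). Of all 8 genes Il10 was the most concentrated in WD, where 6.62% of cells had a UMI before thinning and the 5% of cells with the most Il10 held 93.1% of its UMIs.

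Among the IkB genes, Nfkbia encodes IkB alpha, the inhibitor that NF-kB induces to end its own activity. It stood at 597 CPM in CD (583 to 612), 184 in HFD (174 to 195) and 1207 in WD (1198 to 1216). It was 3.24-fold lower in HFD than in CD and 2.02-fold higher in WD than in CD, the smallest WD/CD ratio of the 8. Nfkbiz encodes IkB zeta, a nuclear member of the class that helps to switch on secondary genes such as Il6. Its levels were 152 CPM in CD (145 to 159), 40.2 in HFD (35.5 to 45.3) and 1640.2 in WD (1629.9 to 1650.4), so it was 3.78-fold lower in HFD and 10.8-fold higher in WD, each against CD.

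Tnfaip3, the gene of the ubiquitin-editing enzyme A20 that restrains NF-kB signalling, had 241 UMIs in CD (21.2 CPM, 18.6 to 24.0), 31 in HFD (4.70 CPM, 3.19 to 6.67) and 36150 in WD (604 CPM, 598 to 610). The HFD level was 4.50-fold lower than the CD level. The WD/CD ratio of 28.5 (25.1 to 32.5) was the largest of the 8 genes, and after thinning a Tnfaip3 UMI was found in 1.83% of CD, 0.350% of HFD and 37.6% of WD cells.

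Zfp36 encodes tristetraprolin, which binds AU-rich sites such as those of the Tnf window above and promotes decay of the messenger RNA. It stood at 335 CPM in CD (324 to 345), 145 in HFD (136 to 155) and 2999.6 in WD (2986 to 3013), that is 2.30-fold lower in HFD and 8.96-fold higher in WD than in CD. Zfp36 overlaps the antisense gene Gm44710, which had 2 UMIs in CD, 0 in HFD and 5571 in WD (93.1 CPM), and since the strand setting of the counting was not given in the sources used here, reads of the pair may have been divided between them. Socs3 encodes a suppressor of cytokine signalling that blocks the IL-6 receptor and is induced through STAT3. It stood at 288 CPM in CD (278 to 298), 93.5 in HFD (86.3 to 101) and 836 in WD (829 to 844), or 3.08-fold lower in HFD and 2.90-fold higher in WD than in CD.

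**Figure D1:**
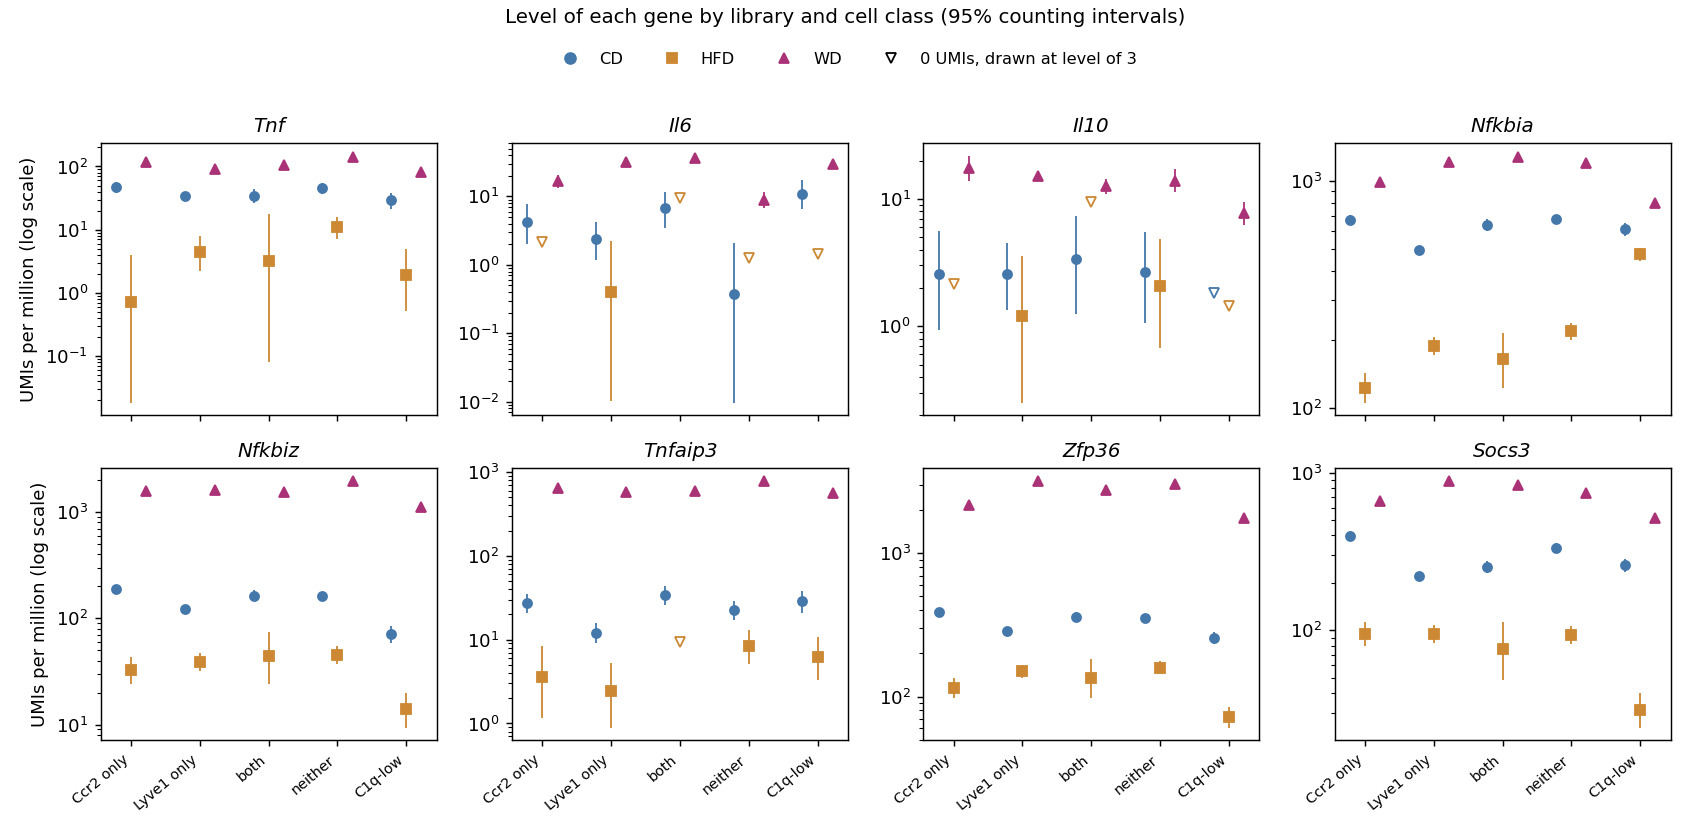
Level of each of the 8 genes in CPM (log axis) by cell class, with 1 point per library (CD, HFD, WD) and its exact 95% counting interval; open triangles mark 0 UMIs, drawn at the level of 3 UMIs. The WD points lie above the CD points in every C1q-high class, and the HFD points below them for Nfkbia, Nfkbiz, Zfp36 and Socs3.

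A gene was counted as higher or lower when its summed CPM differed by at least 1.5-fold, among genes with at least 20 UMIs over both libraries. In HFD against CD, 8 of the 8 genes were lower, where 8.41% of all 11239 genes were lower and 6.74% higher, and the median log2 ratio was -1.81 for the 8 and -0.03 for all genes. In WD against CD, 8 of 8 were higher, but 46.5% of 14467 genes were also higher and 26.8% lower, and the medians were 2.79 and 0.44. Being higher was thus common among all genes in WD, whereas being lower was uncommon among all genes in HFD. In WD against HFD, 8 of 8 were higher (44.2% of all genes), with ratios from 6.56 for Nfkbia to 129 for Tnfaip3 among the genes with at least 20 UMIs in each library. The comparisons share libraries and are not independent of each other.

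**Figure D2:**
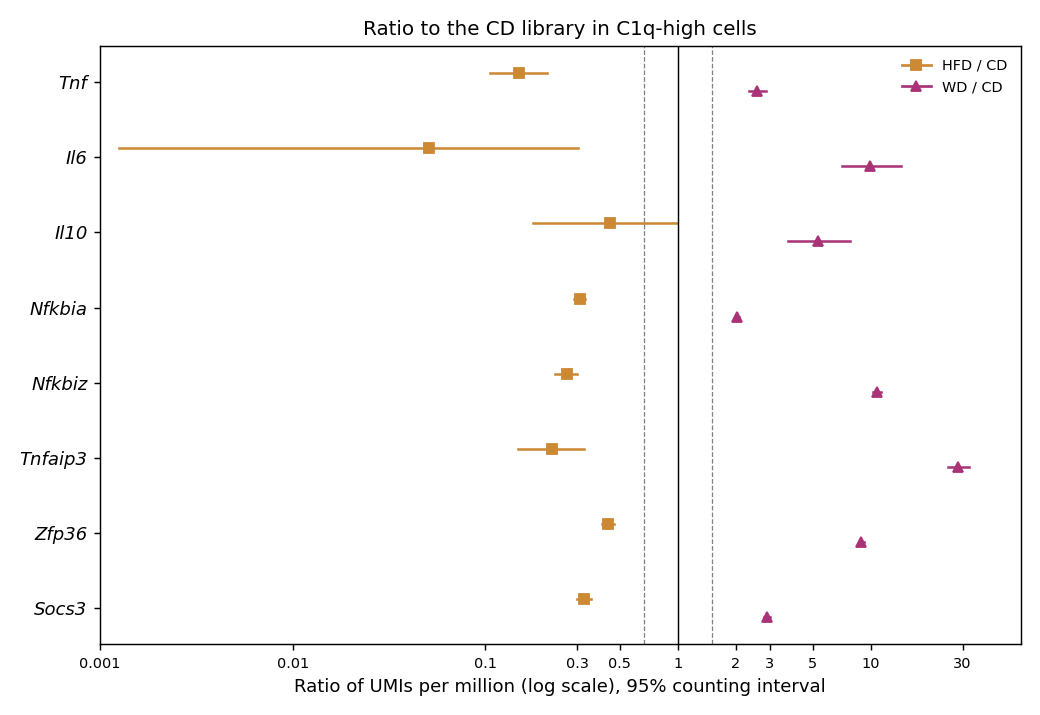
Ratio of summed CPM in C1q-high cells for the 8 genes (log axis), HFD/CD and WD/CD, with exact 95% counting intervals and dashed lines at 1.5-fold. The 8 HFD/CD ratios lie between 0.0508 (Il6) and 0.445 (Il10), and the 8 WD/CD ratios between 2.02 (Nfkbia) and 28.5 (Tnfaip3).

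Since the WD/CD ratio moved with intron length, each gene was also set beside genes of like intron length. Intron length was taken as the bases of a gene outside every annotated exon of any of its transcripts, which for Zfp36 leaves 0 bases although its main transcript has an intron. It reached 22507 bases for Nfkbiz, and all but Il6, Tnfaip3 and Nfkbiz fell in the group of genes with the shortest introns, of 5 groups of like size. Within its own group, the share of genes with a WD/CD ratio at least as high was 0.934% for Tnfaip3, 2.63% for Zfp36, 3.42% for Il6, 3.49% for Nfkbiz and 5.40% for Il10. It was 10.4% for Socs3, 12.0% for Tnf and 16.7% for Nfkbia, so these 3 stood least apart from genes of their own intron length. Why the ratio moves with intron length was not tested, and whether intronic reads were counted was not given in the sources used here.

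RNA outside cells was read from near-empty barcodes with 10 to 100 UMIs, which the CD and HFD files list. Nfkbia was at 226 CPM there in CD and 92.9 in HFD, Zfp36 at 143 and 61.1, and Socs3 at 114 and 21.3. These are below the C1q-high levels and follow the same order, CD above HFD. Tnf was at 10.5 CPM and 1.25 CPM (0.407 to 2.92 in HFD), Nfkbiz at 42.5 and 14.8, and Tnfaip3 at 9.87 and 2.75 (1.37 to 4.93 in HFD). Il6 was at 1.02 CPM (0.210 to 2.98) in CD, with 1 UMI in HFD. Il10 was at 1.70 CPM (0.552 to 3.97) in CD, and its HFD level was 0.751 CPM (0.155 to 2.20). For Il6 and Il10 in both libraries, and for Tnfaip3 in HFD, these intervals overlapped those of the C1q-high cells, so their macrophage levels were not told apart from background at this depth. As a cell type that should lack TNF, C1q-low cells led by endothelial markers (200 in CD with a median of 2654 UMIs, 515 in HFD with 1843) held 1 Tnf UMI in CD and 4 in HFD, or 1.60 and 3.32 CPM. In HFD the interval of that level (0.904 to 8.50) includes the 5.91 CPM of the C1q-high cells, and 0.388% of the endothelial-marked against 0.549% of the C1q-high cells had a Tnf UMI after thinning. Tnf in HFD macrophages thus lay above the near-empty barcodes but was not told apart from the endothelial-marked cells. In CD the C1q-high level of 39.3 CPM lay above the endothelial interval of 0.0404 to 8.89.

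Other cell types and stress genes moved with the diet libraries. The 9 neutrophil markers summed in the C1q-high cells to 849 (CD), 124 (HFD) and 1242 CPM (WD), with Ly6g, Mmp8 and Camp at 0 in HFD, the 7 monocyte markers to 285, 59.6 and 255, and the 10 macrophage markers to 27474, 29827 and 15755. Their part in the levels of the 8 genes was not tested, but in the C1q-high cells in which macrophage markers lead the marker sets the counts were again 8 of 8 lower in HFD than in CD (8.57% of all genes lower and 6.44% higher), 8 of 8 higher in WD than in CD (47.1% higher) and 8 of 8 higher in WD than in HFD (44.5% higher). In these macrophage-led cells the HFD/CD ratio of Il10 rests on 8 against 30 UMIs, with an interval of 0.183 to 1.03 that spans equal levels. That of Il6 rests on 1 UMI against 33. The 16 genes of the dissociation and immediate early list summed in the C1q-high cells to 10358, 4634 and 26734 CPM. Of the 16, 14 were lower in HFD than in CD (median log2 ratio -1.76), where 8.41% of all genes were lower. In WD against CD 14 of 16 were higher (1.38), but so were 46.5% of all genes. Fos, an immediate early transcription factor, was at 1673, 469 and 3683 CPM, in the same order as the 8 genes.

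C1q-high cells were therefore divided, after these values had been seen, by the sum of Fos, Jun, Junb and Egr1 UMIs in the 1000 UMIs kept per cell. Cells with none numbered 417 in CD (18.2%), 992 in HFD (49.6%) and 151 in WD (4.06%), and cells with 3 or more were 1207 (52.6%), 269 (13.4%) and 3178 (85.5%). Next to the upper limit, 292 CD, 211 HFD and 188 WD cells had exactly 2, and 234, 79 and 202 had exactly 3. Within every library the CPM of the 5 feedback genes and of Tnf was higher in cells with more of these UMIs. In HFD this rests on few UMIs for Tnf (7, 18 and 14) and Tnfaip3 (10, 12 and 9), and the Tnfaip3 intervals overlapped. After thinning, their shares of HFD cells did not rise at the last step. They went from 1.08% to 0.743% for Tnf and from 0.540% to 0% for Tnfaip3. Socs3 stood at 46.1, 124 and 455 CPM in CD cells with none, with 1 or 2 and with 3 or more, at 29.5, 55.7 and 412 in HFD, and at 126, 282 and 911 in WD. Zfp36 stood at 119, 205 and 474 in CD, 72.6, 122 and 459 in HFD, and 475, 977 and 3271 in WD. Nfkbia, by the same steps, stood at 222, 306 and 877 in CD, 145, 180 and 330 in HFD, and 322, 538 and 1299 in WD, so its top step was small in HFD.

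Compared within these groups of cells, the HFD/CD ratios of Tnf, Nfkbia, Nfkbiz, Zfp36 and Socs3 lay nearer 1 than over all C1q-high cells. This held both in cells with none and in cells with 3 or more. For Tnf the intervals were 0.0718 to 0.495 in cells with none and 0.139 to 0.438 in cells with 3 or more. Both include its ratio over all C1q-high cells, so the shift of Tnf was not told apart from counting error. In HFD it rests on 7 and 14 Tnf UMIs. The group with 3 or more has no upper limit, so immediate early counts within it are not matched between libraries. Exactly 3 were found in 234 of its 1207 CD cells, 79 of 269 HFD cells and 202 of 3178 WD cells. In cells with none, 5 of the 5 genes that had enough UMIs were lower in HFD than in CD (8.89% of all genes): Tnf at a ratio of 0.201, Nfkbiz 0.455, Zfp36 0.610, Socs3 0.641 and Nfkbia 0.651 (0.570 to 0.745). In cells with 3 or more, 5 of 8 were lower (16.0% of all genes). Zfp36, at 0.968 (0.873 to 1.07), and Socs3, at 0.906 (0.812 to 1.01), had intervals that span equal levels, and Il6 had 0 UMIs in HFD against 22. Nfkbia was at 0.376 (0.334 to 0.422) there, Nfkbiz at 0.521, Tnfaip3 at 0.296 and Tnf at 0.258. Il10, at 0.294, was counted as lower from 1 UMI in HFD against 22 in CD, with an interval of 0.00713 to 1.82 that spans equal levels. In WD against CD, 5 of 6 genes were higher in cells with none (46.5% of all genes), from 2.74 for Socs3 to 23.7 for Tnfaip3, with Nfkbia at 1.45. In cells with 3 or more, 7 of 8 were higher (43.3%), with Nfkbia at 1.48. Nfkbia was thus the gene whose WD/CD ratio lay under 1.5-fold in both sets of cells.

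**Figure D3:**
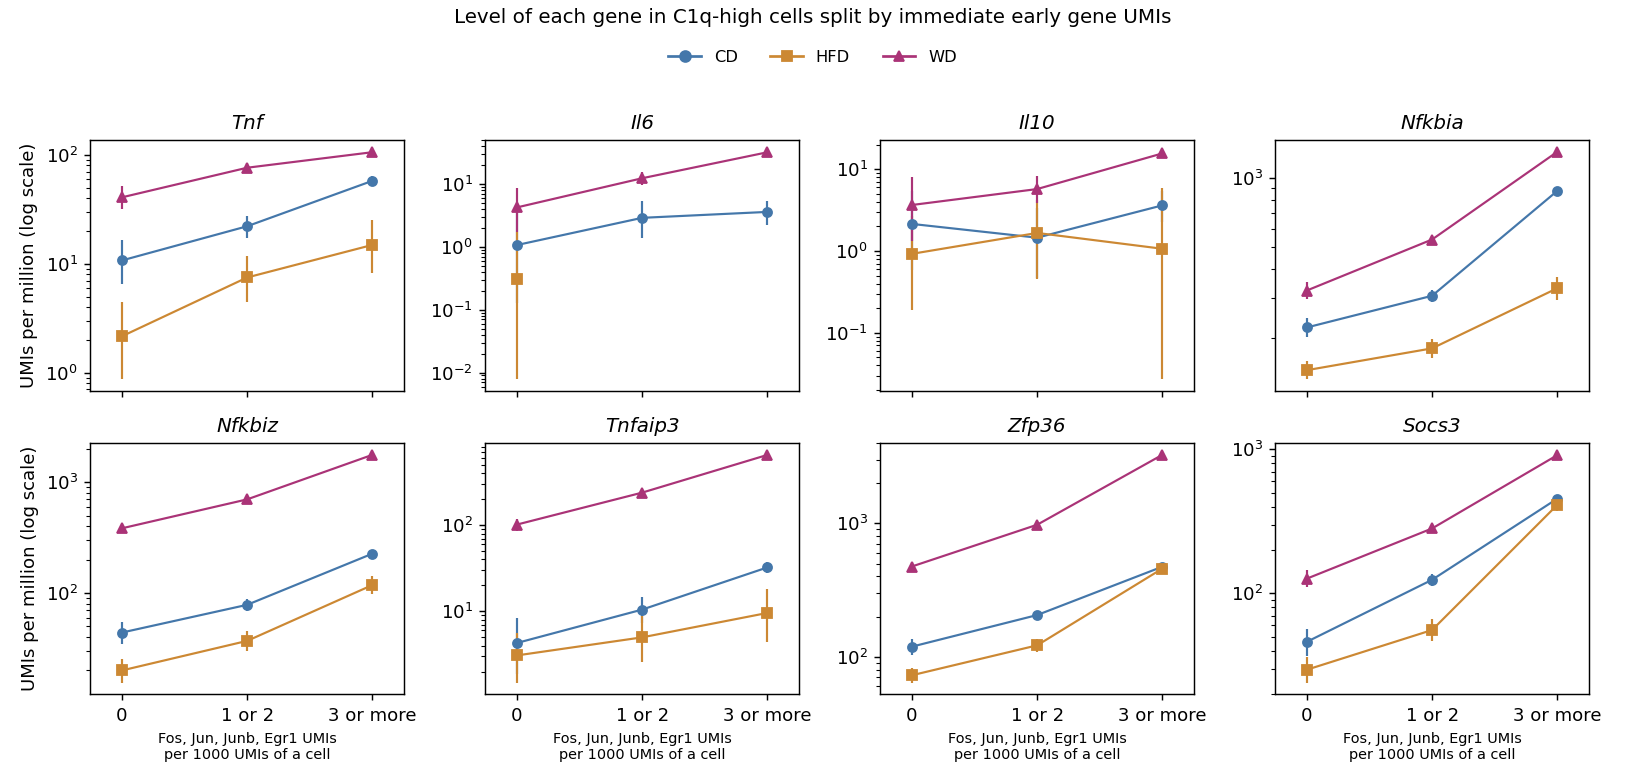
Level of each of the 8 genes in CPM (log axis) in C1q-high cells with 0, with 1 or 2, and with 3 or more Fos, Jun, Junb and Egr1 UMIs of 1000, with 1 line per library and exact 95% counting intervals. The CD and HFD points of Zfp36 (474 and 459) and Socs3 (455 and 412) meet at 3 or more, while those of Nfkbia (877 and 330) stay apart.

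The rest of the pathway was described from lists of other genes. Its counts are read against the shares of all genes given above, 8.41% lower and 6.74% higher in HFD than in CD, and 46.5% higher and 26.8% lower in WD than in CD. Of the 5 NF-kB subunit genes, none was past 1.5-fold in HFD against CD and 5 were higher in WD than in CD, led by Rel, a subunit active in immune cells, at 412 against 30.2 CPM (13.7-fold). The 3 genes of the IKK complex, the kinase that marks IkB for destruction, had none past 1.5-fold in either comparison with CD. Of 12 other inhibitors and feedback genes, 2 were lower in HFD than in CD, and 12 were higher in WD than in CD. The 2 were Nfkbid, a nuclear IkB gene, at 5.91 against 30.2 CPM (5.11-fold lower), and Tnip3, a partner of A20, at a ratio of 0.259. Birc3, a ubiquitin ligase of TNF receptor signalling, stood at 971 CPM in WD against 38.7 in CD (25.1-fold higher). Lower levels in HFD were thus found for 2 of these 12 genes and for 14 of the 16 of the dissociation and immediate early list, where Nr4a1 (5.76 against 45.5 CPM) and Ier3 (60.3 against 300 CPM) had the largest ratios.

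Of the receptors for the 3 cytokines (6 genes), none was past 1.5-fold in HFD against CD. In WD against CD, where 46.5% of all genes were higher, 4 were higher, and Il10rb, a chain of the IL-10 receptor, was lower, at 155 against 283 CPM (1.82-fold lower). Among 6 STAT3 and SOCS genes, Socs1, Cish and Pim1 were lower in HFD than in CD. In WD against CD 5 of the 6 were higher, with Bcl6, a transcriptional repressor, at 270.1 against 6.06 CPM (44.6-fold). Socs1, a relative of Socs3, was lower in WD, at 5.60 against 9.66 CPM (1.73-fold), the opposite of the direction of Socs3. Of 6 genes of messenger RNA decay related to Zfp36, none was past 1.5-fold in HFD against CD and 5 were higher in WD than in CD.

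Within the C1q-high cells, the Ccr2 only and Lyve1 only cells differed in different ways in the 3 libraries. In CD, 4 of the 7 genes with enough UMIs were higher in Ccr2 only cells (11.3% of all genes were higher and 17.4% lower): Nfkbiz at 1.52 times the Lyve1 only level (1.34 to 1.72), Tnfaip3 at 2.26 (1.55 to 3.29), Socs3 at 1.81 (1.65 to 1.98) and Il6 at 1.80, with an interval of 0.684 to 4.66 that spans equal levels. In HFD, 1 of 4 was lower and 0 higher (23.4% and 9.42% of all genes), Nfkbia at 0.657 (0.548 to 0.783). In WD, 1 of 8 was lower and 0 higher (16.4% and 12.8% of all genes), Il6 at 0.516 (0.402 to 0.653). The HFD and WD shares are near or below those of all genes, and 0 of the 8 genes were past 1.5-fold in the same direction in all 3 libraries.

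The levels behind these ratios show where the order turned. Socs3 stood at 397 CPM in Ccr2 only cells against 220 in Lyve1 only cells of CD, 94.8 against 94.7 in HFD, and 663 against 883 in WD. Nfkbia stood at 672 against 498 CPM in CD, 123 against 188 in HFD and 984 against 1206 in WD. Zfp36 stood at 387 against 289, 115 against 150, and 2179 against 3218. Of these values only Socs3 in CD and Nfkbia in HFD were past 1.5-fold. The intervals of all 3 ratios lay above 1 in CD and below 1 in WD, and in HFD those of Nfkbia and Zfp36 lay below 1. The difference between the libraries, whose classes also differ in depth, was not tested. The sum of the dissociation and immediate early list followed the same order, at 10504 against 9836 CPM in CD, 2994 against 5435 in HFD and 19367 against 28560 in WD, and its part was not tested. Tnip3, the A20 partner, was higher in Ccr2 only cells of all 3 libraries, at 58.6, 21.7 and 7.32 times the Lyve1 only level.

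**Figure D4:**
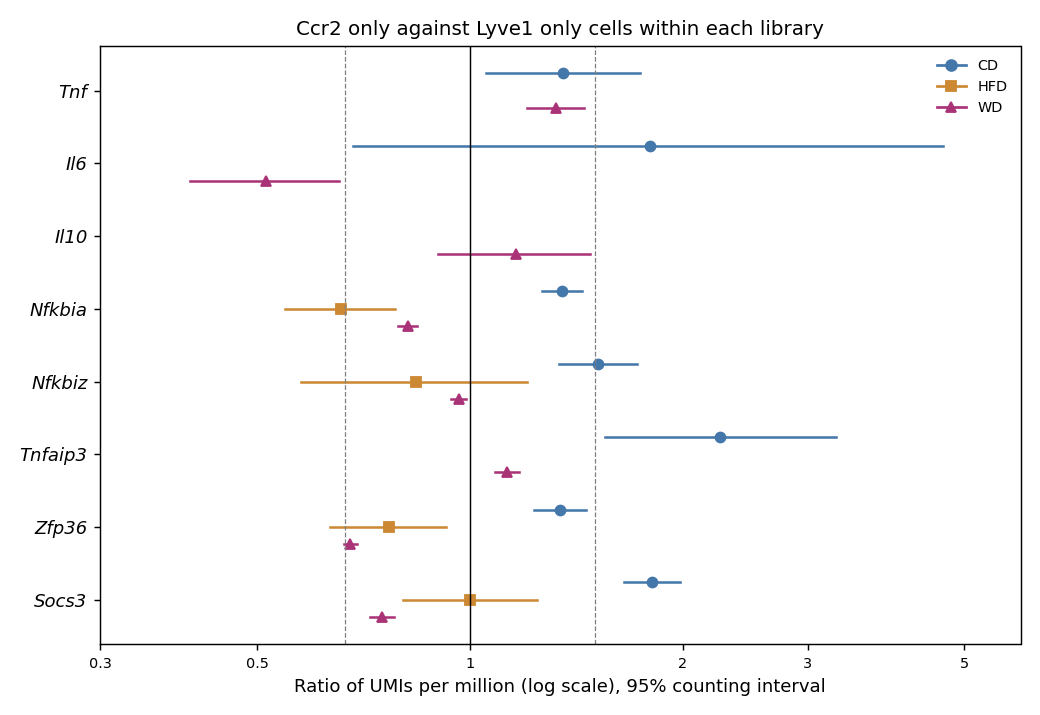
Ratio of Ccr2 only to Lyve1 only cells in CPM (log axis) for the 8 genes in each library, with exact 95% counting intervals; genes with under 20 UMIs over both classes are not drawn. The CD ratios of Nfkbia (1.35), Zfp36 (1.34) and Socs3 (1.81) lie above 1, and the WD ratios (0.816, 0.677 and 0.751) below it.

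The diet order held in every class for the genes with enough UMIs, although the classes depend on depth and are not matched between libraries. In HFD against CD, 6 of 6 genes were lower in Ccr2 only cells (13.9% of all genes lower, 6.45% higher), 6 of 6 in Lyve1 only cells (8.88% and 8.33%), 6 of 6 in cells with both (21.3% and 10.3%) and 6 of 6 in cells with neither (10.9% and 7.51%). The ratios were further from 1 in Ccr2 only than in Lyve1 only cells, at 0.183 (0.156 to 0.215) against 0.377 (0.341 to 0.417) for Nfkbia, 0.239 against 0.431 for Socs3, 0.299 against 0.521 for Zfp36 and 0.175 against 0.316 for Nfkbiz, a difference that was not tested. In WD against CD, 8 of 8 genes were higher in Lyve1 only cells (44.9% of all genes), in cells with both (42.3%) and in cells with neither (43.2%), and 7 of 8 in Ccr2 only cells (43.4%), where Nfkbia was at 1.46. In WD against HFD, the 5 feedback genes were higher in Ccr2 only cells (46.1% of all genes), Lyve1 only cells (41.1%), cells with both (33.4%) and cells with neither (43.8%).

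C1q-low cells were of other makeup in each library. Endothelial markers led in 200 of 386 CD cells (51.8%) and 515 of 715 HFD cells (72.0%), but in 1 WD cell, where macrophage markers led in 667 of 1058 cells (63.0%), natural killer cell markers in 152 (14.4%) and neutrophil markers in 69 (6.52%). Nfkbia in C1q-low cells was at 1.02 times the C1q-high level in CD, 2.58 times in HFD (2.37 to 2.81) and 0.664 times in WD (0.650 to 0.679). In HFD, 87.8% of the C1q-low Nfkbia UMIs lay in the endothelial-marked cells, at 722 CPM against 184 in C1q-high cells. In CD the endothelial-marked cells stood at 541 CPM. Nfkbia was thus 3.24-fold lower in HFD macrophages, while the endothelial-marked cells of the same library were not below those of CD. The other feedback genes went the other way in endothelial-marked cells. Zfp36 stood at 118 CPM in CD and 84.6 in HFD, Nfkbiz at 27.1 and 12.4, Socs3 at 36.7 and 28.2, and Tnfaip3 at 9.58 and 6.64. For each of these the intervals of CD and HFD overlapped. The HFD C1q-low cells led by macrophage markers (116 cells) were at 130 CPM (102 to 163), below the interval of the HFD C1q-high cells.

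Over all the genes with enough UMIs in HFD, 4 of 6 genes were lower (16.3% of all genes) and Nfkbia alone was higher (32.5% of all genes were higher). Socs3 was at 0.334, Tnf at 0.325, Nfkbiz at 0.347 and Zfp36 at 0.492 times the C1q-high level. The Tnf ratio rests on 4 UMIs in HFD C1q-low cells, all of them in endothelial-marked cells. The interval of that level (0.523 to 4.92 CPM) overlaps that of the HFD C1q-high cells (4.20 to 8.08). In WD, 4 of 8 were lower (11.6%), Nfkbia among them, and 0 higher (23.3%), and in CD 1 was lower (Nfkbiz at 0.468; 16.2% of all genes) and 1 higher (Il6 at 3.67, from 18 UMIs; 26.5% of all genes). In HFD against CD within C1q-low cells, 5 of 6 genes were lower (11.7% of all genes) and Nfkbia was at 0.778. In WD against CD, 7 of 8 were higher (41.2%) and Nfkbia was at 1.31. In WD against HFD, where 42.1% of all genes were higher, the C1q-low ratio of Nfkbia was 1.69 (1.58 to 1.80).

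The WD library had enough C1q-low cells to show the genes by cell type. In natural killer-marked cells Zfp36 was at 299 CPM, Nfkbiz at 300 and Nfkbia at 198, all below their levels of 2999.6, 1640.2 and 1207 CPM in C1q-high cells, while Tnfaip3 was at 345 CPM against 604. Tnf was at 11.3 CPM in these cells. In neutrophil-marked cells Zfp36 stood at 2889 CPM and Nfkbia at 1211 CPM, close to the C1q-high levels, while Socs3 stood at 313 against 836 CPM and Tnf at 22.8 against 102. Il6 stood at 64.3 CPM in 36 cells led by fibroblast or mural markers, and 3 cells led by mast cell or basophil markers held 43 Il6 UMIs, 12.2% of the C1q-low total.

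Whether the 8 genes were found in the same cells was read from C1q-high cells thinned to 1000 UMIs, as the number of cells with both genes of a pair divided by the number that independent detection would give. Of the 28 pairs, 14 in CD, 6 in HFD and 26 in WD had an expectation of at least 5 cells. The quotient was at least 1.5 for 11 of 14 pairs in CD (3.97% of all gene pairs with that expectation), 3 of 6 in HFD (4.12%) and 1 of 26 in WD (4.12%). No pair reached it in all 3 libraries. By the odds ratio, which high shares of cells do not limit in this way, 12 of 14 pairs in CD (11.7% of all gene pairs), 3 of 6 in HFD (12.7%) and 18 of 26 in WD (8.84%) were at 1.5 or more. The pairs among Nfkbiz, Zfp36 and Socs3 reached it in CD (1.60 to 1.71) and HFD (2.38 to 2.39). In WD they stood at 1.08 to 1.13, where the shares of cells are so high that the quotient cannot pass 1.21 to 1.46. By the odds ratio these 3 pairs stood at 2.32 to 2.79 in CD, 2.80 to 3.21 in HFD and 2.23 to 3.87 in WD.

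Nfkbia shared cells with these genes less strongly in HFD, where its quotient was 1.25 with Nfkbiz, 1.29 with Zfp36 and 1.32 with Socs3. In CD the Nfkbia and Tnfaip3 pair, an inhibitor and an enzyme of the same feedback, was found in 33 cells against 15.1 by independence, and Tnfaip3 and Socs3 in 22 cells against 8.65. In WD the cytokines Tnf and Il6 were found together in 5 cells against 7.67, a quotient of 0.652 and the only one below 1. Counted over the 8 genes, 41.8% of CD, 69.1% of HFD and 5.38% of WD cells had none of them, where independence gives 31.0%, 66.9% and 0.644%. Cells with 3 or more numbered 249 in CD (10.9% against 5.05%), 14 in HFD (0.699% against 0.274%) and 2505 in WD (67.4% against 70.4%). The genes were thus found together more often than independence gives in CD and HFD, and in WD more cells had none and more had 5 or more (16.9% against 8.95%).

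**Figure D5:**
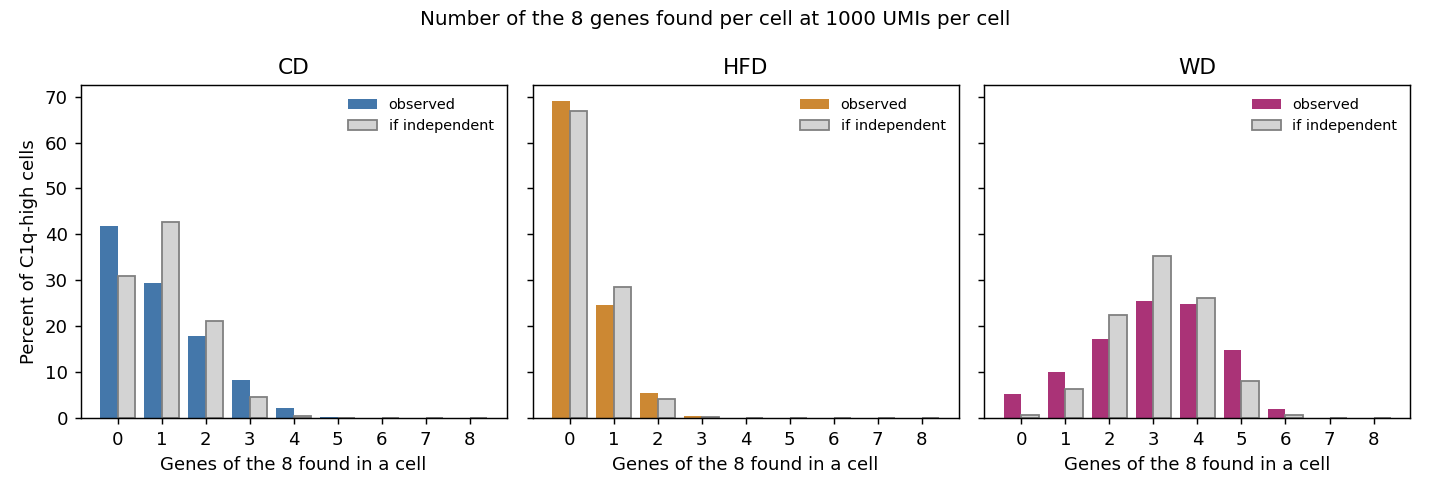
Share of C1q-high cells (percent) by the number of the 8 genes found in 1000 UMIs per cell, as observed and as given by independent detection, in CD, HFD and WD. Cells with none exceed independence in all 3 libraries (41.8% against 31.0% in CD, 69.1% against 66.9% in HFD, 5.38% against 0.644% in WD).

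The genes whose counts followed a member most closely were read from the Pearson correlation of log counts across thinned C1q-high cells, averaged over the 3 libraries, among 1578 genes found in at least 5% of cells of each library. Only Nfkbia, Zfp36 and Socs3 met that share themselves. Zfp36 was most like Fos (0.35), Junb (0.33), Dusp1 (0.30), Jun (0.29) and Socs3 (0.24). Socs3 was most like Fos (0.33), Junb (0.32), Dusp1 (0.31), Jun (0.28) and Zfp36 (0.24), and Nfkbia like Junb (0.27), Fos (0.22), Jun (0.22) and Dusp1 (0.20). For Nfkbia the libraries differed, since the correlation with Junb was 0.079 in HFD, against 0.41 in CD and 0.32 in WD, and that with Fos 0.055, against 0.42 and 0.20. All these genes but Zfp36 and Socs3 are immediate early genes of the dissociation list. The correlations are weak, are taken across 2293, 2002 and 3717 cells that share a library, and are given as a description.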

How the data were processed

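Raw UMI counts per gene and barcode, deposited by the authors without normalization, were used for 1 library per diet. Per the file headers, the alignment software was version 3.0.1 for the CD and HFD files and 7.2.0 for the WD file. Per the submitters' processing notes, the genome build was GRCm38 and Seurat was used. Cell filters, pooling of animals, strand and intron counting were not given in the sources used here. Genes were joined by Ensembl ID (30406 shared, 597 of them renamed), and counts were summed per library and cell class and divided by the class total.

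Exact Poisson, Clopper-Pearson and conditional intervals at 95% cover counting error only. A 0 allows up to 3 UMIs. No doublets were removed in the values given; an alternative removed the highest doublet scores at 0.8% per 1000 cells. The 8 genes, the pathway and marker lists and the comparisons were chosen with earlier results of these data known. Pathway genes were named by a rule (up to 3 per comparison and direction with the largest ratio past 1.5-fold). The remaining named list genes (Tnip3 in HFD against CD, Socs1, Cish and Pim1, Fos, Csf1r and Mrc1) were chosen after their values were seen. The split by immediate early UMIs, the odds ratio, the macrophage-led cells and the counts without 1 library were also chosen after seeing the data. A cell was counted as led by the cell type with the most markers found in it, at least 3 and more than any other. Alternatives changed the UMI, mitochondrial and C1q limits, the scaling, the weighting of cells, the depth, the doublets, the minimum UMIs per gene and the random seed. 1 sequence window is not reported here. The calls and ratio intervals were tested on simulated Poisson counts that hold no variation between cells or libraries. The co-detection quotient was tested only on a simulated pair of independent genes. Python 3.11.15, numpy 2.4.6, scipy 1.17.1, pandas 2.3.3, scikit-learn 1.9.0 and matplotlib 3.10.9 were used.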

Additional observations from a re-analysis of the deposited data

Results flagged for a closer look

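In 4 genes the order of Ccr2 only and Lyve1 only cells turned between libraries, with counting intervals on opposite sides of 1. The ratio of Ccr2 only to Lyve1 only cells for Nfkbia was 1.35 in CD, against 0.657 in HFD and 0.816 in WD, and for Zfp36 it was 1.34, 0.768 and 0.677. It was 1.52 in CD and 0.964 in WD for Nfkbiz, and 1.81 in CD and 0.751 in WD for Socs3. Nfkbia also turned between C1q-low and C1q-high cells, at 2.58 in HFD and 0.664 in WD. The C1q-low cells were mostly endothelial-marked in HFD and mostly macrophage-marked in WD. Each library holds 1 value, so the difference between libraries was not tested.

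Barcodes that the mitochondrial limit removed also held UMIs of the 8 genes. In the removed barcodes the 8 genes summed to 1581 (CD), 495 (HFD) and 7044 CPM (WD), beside 1438, 475 and 7433 in the kept C1q-high cells. The order of the libraries was the same in both. The removed barcodes were not split by C1q. Of them 70.2% in CD, 62.4% in HFD and 21.9% in WD were at or above the C1q limit, so the sets differ in makeup, most of all in WD.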

How the results depend on the processing

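The counts of genes higher in WD than in CD and higher in WD than in HFD were 8 under each alternative of the filters, scaling, weighting, depth and doublets that was run. The count lower in HFD than in CD was 8 too, except that it was 7 with the mean of per-cell CPM (Il10 at a ratio of 0.727) and 6 of the 6 with enough UMIs in cells thinned to 1000 UMIs, where Il6 (0.382) and Il10 (0.764) had too few. No gene of the 8 changed direction in the 112 ratios run under alternatives for each comparison. With WD ratios divided by the median ratio, 39.6% of all genes were higher and 33.2% lower than CD. In cells divided by immediate early UMIs, which was added after seeing the data, the HFD against CD count was 5 with none and 5 with 3 or more, and the WD against CD count was 5 with none, where fewer genes had enough UMIs. The count of genes past 1.5-fold in the same direction between C1q-low and C1q-high cells in all 3 libraries was 0. It was 1 (Nfkbiz) with a 5% mitochondrial limit, 1 (Nfkbiz) with C1q genes at 0.1%, 1 (Nfkbiz) with ratios divided by the median and 2 (Zfp36 and Socs3) with the mean of per-cell CPM, and the cause was not tested. With each library left out in turn, this count ran from 0 (without HFD) to 2 (without CD, Zfp36 and Socs3), with 1 (Nfkbiz) without WD. The count of pairs found together ran from 0 to 3 (without WD), and by the odds ratio it was 3. The count for Ccr2 only against Lyve1 only cells was 0 throughout. No paired analysis was possible because each diet has 1 library. Depth limits Il6 and Il10 in CD and HFD, where 3 UMIs are 0.263 and 0.455 CPM.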
